A study of Schizosaccharomyces pombe with 28 samples.

Results

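Transcripts of the fission yeast Schizosaccharomyces pombe were compared between a strain lacking both zfs1 and cbf12, called the double null here, and a strain lacking cbf12 alone, called cbf12-null. The question was what the loss of Zfs1 does to the transcriptome when Cbf12 is already missing. Both strains carried the cbf12 deletion, so the strains compared differed by label only in zfs1. The comparison used the 6 arrays titled for these strains, 3 of each, out of 28 arrays in the series. All 6 came from the project numbered 582 by the submitters, which also held 3 wild type (WT) arrays and 3 arrays of a strain lacking zfs1 alone (zfs1-null). Those 6 arrays gave the effect of zfs1 deletion with Cbf12 present, and 2 further projects gave it again, number 488 with 3 WT and 3 zfs1-null arrays and number 529 with 5 of each. No treatment was given. Cultures of all strains were grown in rich medium with yeast extract and supplements to mid-log phase at 30 °C, and polyA RNA was purified, amplified and hybridised. The sources used here do not give the mating type, the other alleles or the number of clones of each strain. The series text calls the arrays biological replicates without saying whether each had its own culture, so the p-values measure the spread between these samples.

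Zfs1 is a CCCH zinc finger protein of the tristetraprolin family, whose members bind AU-rich elements in the untranslated ends of mRNAs and recruit the enzymes that shorten the poly(A) tail, so that the bound mRNA decays faster. An mRNA that is a direct target is therefore known to accumulate when such a protein is lost. Cbf12 belongs to the CSL family of transcription factors and promotes cell adhesion and flocculation, the clumping of yeast cells through cell surface glycoproteins called flocculins. The cbf12 transcript itself rose on zfs1 deletion in projects 488 (1.27, adjusted p = 6.8e-05) and 529 (1.16, adjusted p = 1.3e-06), and its change of 1.33 in project 582 was not called (adjusted p = 0.063). That fit takes the spread of cbf12 also from the 6 arrays that lack it, which read below background, and fitting the WT and zfs1-null arrays alone gave the same change with an adjusted p of 6.0e-05. The cbf12-null background takes that transcript out of the comparison.

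The signal given throughout is the MAS5 value deposited by the authors, a linear intensity per probe set scaled on each array. A change is a difference of mean log2 signals with its standard error (SE), and a gene was called when its limma p-value, adjusted by the Benjamini-Hochberg method over the 2899 S. pombe genes tested, was below 0.05. The deleted genes matched the labels of the compared strains. The zfs1 signal was 630.0, 623 and 548 on the cbf12-null arrays and 1.91, 7.22 and 0.319 on the double null arrays, where it lay below the array's background in replicates 1 and 3 and above it in replicate 2. That puts zfs1 at least 102-fold lower in the double null. The cbf12 signal was 0.273, 0.67 and 0.257 in the cbf12-null strain and 0.142, 0.173 and 0.604 in the double null, below background on all 6 arrays, so no fold is given. For comparison, cbf12 read 188, 170.2 and 195 in WT and 485, 497 and 411 in the zfs1-null strain. The background, the percentile 95 of probe sets for other species, lay between 4.53 and 5.44 on the compared arrays.

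The double null arrays varied more than those of the other strains. The median over genes of the standard deviation (SD) of log2 signal was 0.14 in the double null against 0.08 in the cbf12-null strain, and each array's correlation across genes with the other replicates averaged 0.981, 0.976 and 0.985 in the double null against 0.992 to 0.993 in the cbf12-null strain. Replicate 2 of the double null stood farthest apart. The number of arrays limits the precision, and since MAS5 sets the arrays' means equal, a shift common to nearly the whole transcriptome cannot be seen.

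Deletion of zfs1 in cells lacking Cbf12 moved many transcripts a little and a smaller group downwards by a lot. Of 2899 genes, 980 were called (33.8%), 546 higher (18.8%) and 434 lower (15.0%), the last count including zfs1 itself. Without replicate 1 of the cbf12-null strain 356 were higher and 342 lower. The median change over all genes was 0.06 on the log2 scale. RNA came from whole cultures, so fewer cells with a transcript and less of it per cell cannot be told apart. The size of the changes was uneven between directions. Among the called genes only arz1 rose by 2-fold or more, whereas 90 genes fell by 2-fold or more, the deleted genes left out. By array, all 3 double null signals lay above all 3 cbf12-null signals for 730 genes (25.2%) and below them for 550 genes (19.0%). The median signal over the 90 genes with large falls was 654 in the cbf12-null strain and 236 in the double null, well above background. Single genes among them, such as mug96, lay near background. All 90 were still called without replicate 2 of the double null, and 83 after quantile normalization.

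The rise of arz1 (SPCC1494.03), which encodes an armadillo repeat protein and is named as a target of Zfs1, was the clearest of all. Its signal was 347, 438 and 363 on the cbf12-null arrays and 1251, 1276 and 1322 on the double null arrays. The groups stood far apart, and the replicates within each were close. The change was 1.75 ± 0.09 (SE) on the log2 scale, a 3.37-fold rise (adjusted p = 1.0e-09). With Cbf12 present the rise in the same project was 1.83, from 369, 365 and 389.6 in WT to 1283, 1402 and 1312 in the zfs1-null strain. The difference between the rises, -0.08, did not pass the test (adjusted p = 0.76).

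The other large rises were between 1.75-fold and 1.93-fold. The DNA endonuclease gene nth1 read 545, 659 and 521 in the cbf12-null strain and 1111, 1127 and 1072 in the double null (0.95 ± 0.10, adjusted p = 1.7e-06). For mus7, a gene of replication fork repair, the signals were 175, 157 and 129 against 250.5, 311 and 310.3 (0.92 ± 0.15, adjusted p = 2.8e-04). The DNA polymerase zeta gene rev3 gave 122, 139.8 and 131 against 221, 235 and 239 (0.83 ± 0.19, adjusted p = 0.0034). In each of these genes the lowest double null array exceeded the highest cbf12-null array, which the rule that picked the largest rises required. The histone chaperone genes rtt106 (0.91) and asf1 (0.81) and the transcription-coupled repair gene rhp26 (0.85) rose as well. So did gaa1 (0.92), for attachment of glycolipid anchors to proteins, imt1 (0.81), for a mannosyltransferase of sphingolipid synthesis, and cid11 (0.82), for a nucleotidyltransferase of the Cid family that adds nucleotides to RNA ends. For rtt106, imt1, eng1 and cig2 the change without Cbf12 lay above the change with Cbf12 present by 0.60, 0.86, 0.80 and 0.32 on the log2 scale (adjusted p = 0.013, 1.7e-05, 0.015 and 0.049). The eng1 call was lost without replicate 3 of the cbf12-null strain (0.74), and the cig2 call was lost in 15 of its 22 alternatives. The differences for nth1, mus7, gaa1, rhp26, rev3, cid11 and asf1 did not pass.

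The largest fall was that of mei2 (SPAC27D7.03c), which encodes the RNA-binding protein that drives entry into meiosis. Its signal was 567, 485 and 429 on the cbf12-null arrays and 15.8, 19.2 and 20.4 on the double null arrays, a change of -4.74 ± 0.16 or a 26.7-fold fall (adjusted p = 3.8e-12). The hexose transporter family gene ght3 (SPAC1F8.01) followed with 1452, 1515 and 1538 against 109, 68.9 and 90.1, a change of -4.10 ± 0.16 or 17.1-fold (adjusted p = 2.0e-11). Neither gene's groups came near each other, though the rule for the largest falls took only genes without overlap. Both transcripts were higher in the cbf12-null strain than in WT, where mei2 read 285, 227 and 307 and ght3 read 251, 194 and 185, and both ended in the double null below the zfs1-null signals of 111, 91.9 and 92.6 and 125, 125 and 111.

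The remaining largest falls included enzymes of carbon and nitrogen use. The enolase gene eno102 read 2969.5, 3029.6 and 3344 against 496, 447 and 446 (-2.75 ± 0.08, adjusted p = 7.4e-13). The uracil-induced gene urg1 read 1803, 1844 and 1752 against 243, 206 and 210.2 (-3.04 ± 0.09), and uga1, which encodes 4-aminobutyrate aminotransferase, read 1821, 2027 and 2089.5 against 323, 268 and 321 (-2.71 ± 0.12). In all of these the replicates of a strain lay close together. The alpha-galactosidase gene mel1 (-2.55), the dihydroxyacetone kinase gene dak2 (-2.53), the galactosyltransferase gene gmh1 (-2.50) and the transporter gene ght1 (-2.67) fell too. The meiotically upregulated gene mug14 fell by 6.55-fold (-2.71 ± 0.33), but its double null arrays read 477, 1965 and 626, with replicate 2 far above the others and still below the cbf12-null signals of 5772, 4825 and 5936. Near background, mug96 went from 27.7, 29.1 and 21.1 to 4.95, 3.64 and 6.29 (-2.41), a call lost after quantile normalization (-0.42). The fall of wtf3 (-2.51) belongs to a family of near-identical genes described further on.

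**Figure D1:**
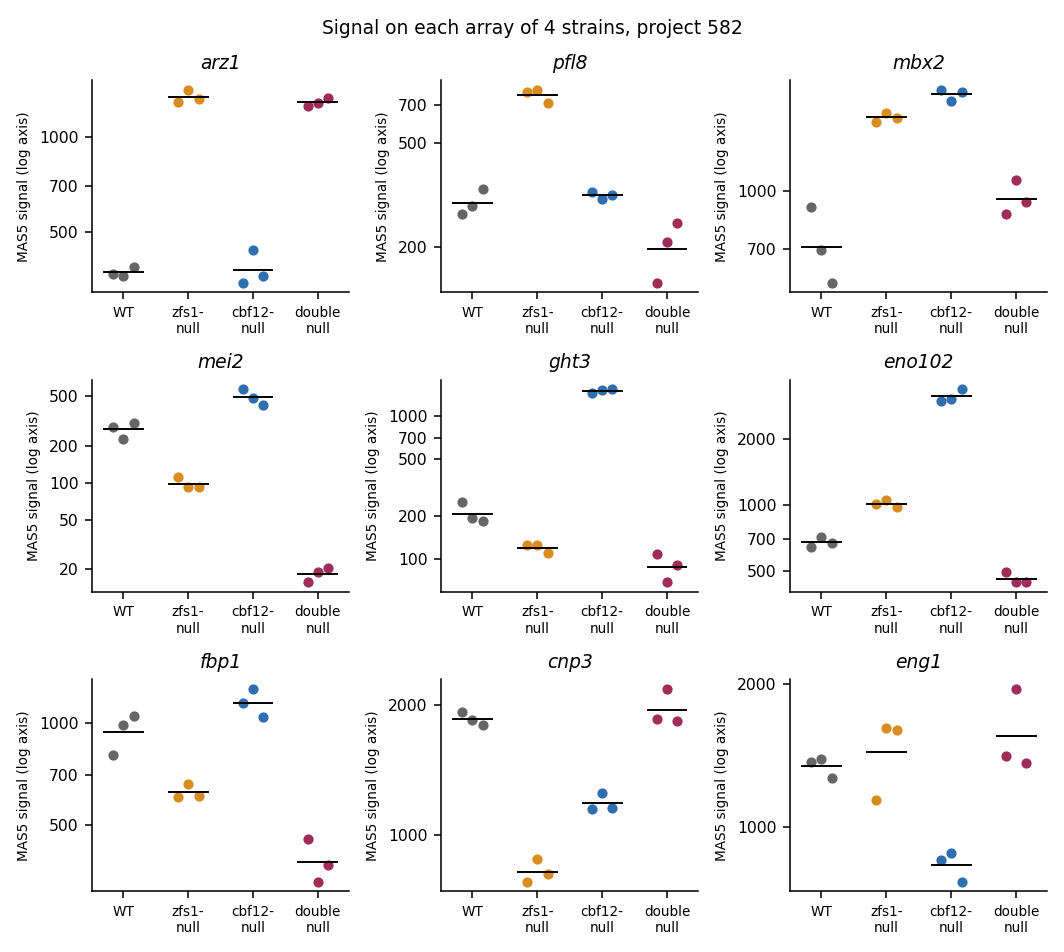
MAS5 signal (log axis) of 9 genes on each of the 12 arrays of project 582, by strain; points are arrays and black lines are geometric means of 3 arrays. arz1 is high in both strains without zfs1, pfl8 is high only where zfs1 alone is deleted, and mei2, ght3, eno102 and fbp1 have their highest mean in the cbf12-null strain and their lowest in the double null.

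Cell adhesion is the subject named in the series title. Of 21 measured genes listed as adhesins or as activators or repressors of adhesion, the effect of zfs1 deletion differed between cells without and with Cbf12 for 3, namely pfl8, mbx2 and mbx1, where 9.76% of all genes had a called difference. Of 13 flocculins and mating adhesins listed, 3 were measured. The flocculin-like gene pfl8 (SPAC1F8.06) read 325, 305 and 317 on the cbf12-null arrays and 146, 209 and 247 on the double null arrays, so that all double null arrays were lower. It fell by 0.69 on the log2 scale, with an SE of 0.16 (adjusted p = 0.0036). With Cbf12 present, pfl8 rose with zfs1 deletion, from 267, 286 and 334 in WT to 784, 801 and 713 in the zfs1-null strain (1.38 ± 0.16, adjusted p = 2.1e-05), and by 1.87 and 1.98 in projects 488 and 529. The difference between the effects without and with Cbf12 was -2.07 ± 0.22 (adjusted p = 1.0e-05). The mating adhesins map4 and mam3 changed by 0.09 and -0.04 and were not called, although map4 was called higher after quantile normalization (0.41).

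Of 9 listed activators of adhesion 8 were measured, 3 were called higher and 1 lower, with cbf12 itself among the rest. The MADS box factor gene mbx2, whose product activates flocculin transcription, read 1865, 1744 and 1839 in the cbf12-null strain and 870.1, 1073 and 934 in the double null (-0.93 ± 0.13, adjusted p = 4.4e-05). It thus fell, whereas it rose from 909, 694 and 569.6 in WT to 1534, 1616 and 1572 in the zfs1-null strain (1.15), and the difference of -2.07 ± 0.18 passed the test (adjusted p = 6.8e-07). Its paralogue mbx1 did the opposite. It read 889, 923 and 839 in the cbf12-null strain and 1180.2, 1434 and 1233 in the double null, rising by 0.53, against -0.31 with Cbf12 present (difference 0.84 ± 0.12, adjusted p = 1.5e-04). The genes ldb1 (0.53) and yox1 (0.42) rose, and adn2, adn3 and sre2 were not called. Of 11 listed repressors of flocculation 10 were measured and 3 rose, srb8 (0.45) and srb11 (0.32) of the Mediator kinase module and the corepressor gene ssn6 (0.36), where 18.8% of all genes were called higher. Without replicate 3 of the cbf12-null strain 1 repressor was called higher. The kinase gene srb10 of the same module read 238, 223 and 211 against 334, 123 and 434, with replicate 2 of the double null low. It was not called with all arrays (0.22) and was called higher without that array (0.77). Without it the ssn6 and yox1 calls were lost (0.24 and 0.32), and the srb11 call was lost in 10 of its 21 alternatives.

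In nitrogen-starved fission yeast cells genes of mating and meiosis are switched on by the transcription factor Ste11, and in rich medium they are held low. Of 27 measured genes of mating and pheromone response, 15 were called lower and 1 higher, with a median change of -0.50, against 15.0% lower and a median of 0.06 over all genes. With Cbf12 present in project 582 the list gave 11 lower and none higher, with a median of -0.35, where 7.14% of all genes were lower. The difference between the backgrounds was called higher for 2 of its genes and lower for 2. The M-factor pheromone gene mfm1 read 63.9, 66.2 and 77.4 in the cbf12-null strain and 16.5, 16.1 and 20.8 in the double null (-1.96 ± 0.18), and its second, dimmer probe set changed by -3.06. After quantile normalization the change of mfm1 was -0.79. The P-cell transcription factor gene map1 read 269, 282 and 255 against 69.5, 80.3 and 59.0 (-1.96 ± 0.16). All double null arrays of both genes were at less than the lowest cbf12-null array. The genes ste4 (-1.37), for an adaptor of the pheromone kinase cascade, and ste7 (-1.18) fell as well. Of the genes that mark mating type, the M-cell genes mfm1, mfm2 (-0.97), mfm3 (-0.81) and sxa2 (-0.50) were called lower, mam1 (-0.20) and mam2 (-0.11) were not called, and neither were the P-cell genes map2 (0.08) and map3 (0.10).

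Of 39 measured genes of meiosis, 15 were called lower and 4 higher, with a median of -0.30. Beside mei2, the meiotic cyclin gene rem1 read 57.7, 68.5 and 64.3 against 18.2, 15.6 and 17.1 (-1.90 ± 0.17), the nuclear fusion gene tht1 read 347, 300.0 and 306 against 89.0, 119 and 104 (-1.62 ± 0.15), and the recombination gene rec7 read 595, 666 and 677 against 303, 229 and 342 (-1.17 ± 0.16). In these genes the strains did not overlap. Quantile normalization gave 8 lower and 8 higher and a median of 0.04, so the direction of the meiosis list as a whole depends on the scaling. The falls of mei2, rem1, tht1 and rec7 were called there too, that of rem1 at -0.68. The 4 higher calls were 1 without replicate 2 of the cbf12-null strain and 2 without its replicate 3 or without replicate 3 of the double null. Of 23 spore formation genes 9 fell and 4 rose (2 without replicate 1 of the cbf12-null strain), with spn7, a meiotic septin gene, at -1.14. The lowest value of this list was that of wtf3 (-2.51), which is also counted in the wtf family described further on. Among 109 mug and meu genes, named for their increase in meiosis, 39 fell and 12 rose (7 without the same array), the largest falls after mug14 and mug96 being mug108 (-1.93) and mug15 (-1.91). With quantile normalization this list gave 28 lower and 20 higher. In these 3 lists the share called lower exceeded the 15.0% of all genes in the deposited scaling. With Cbf12 present in project 582, 12 of the 39 meiosis genes, 2 of the 23 spore formation genes and 23 of the 109 mug and meu genes were called lower. Of all genes 7.14% were lower there. For the meiosis list the median there was -0.21, and the difference was called higher for 5 genes and lower for 4.

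Deep falls were also found among transcripts for the use of carbon sources other than glucose. Fission yeast represses these genes in glucose-rich medium through cAMP and protein kinase A, and the transcription factor Rst2 activates some of them when glucose is short. All 8 hexose transporter family genes were called with all arrays, 6 lower and 2 higher, where 15.0% of all genes were called lower and 18.8% higher. Without replicate 1 of the cbf12-null strain, with only the 6 compared arrays fitted and after quantile normalization, 5 were lower and none higher. Without replicate 2 of the cbf12-null strain or replicate 3 of the double null 1 was higher. Beside ght3, the gene ght1 read 464, 546 and 509 against 73.8, 79.2 and 85.7 (-2.67 ± 0.12, adjusted p = 1.2e-10) and ght4 read 1815, 2027 and 1925 against 628, 538 and 530.4 (-1.77 ± 0.08, adjusted p = 1.7e-10). The dimmer ght7 read 82.2, 81.1 and 80.3 against 21.4, 41.3 and 33.0 (-1.40), a call lost after quantile normalization (-0.37). All 4 were lower on every double null array. The smaller changes, named after their values were seen, were -0.33 for ght6, -0.32 for ght5, 0.18 for ght8 and 0.21 for ght2.

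Of 20 measured glucose-repressed and alternative carbon genes, 14 were called lower and 1 higher, with a median of -0.99. The shares over all genes were 15.0% lower and 18.8% higher. Leaving out any 1 array kept the number of lower calls at 14, and the higher call was lost without any of several arrays. The zinc finger factor gene rsv1, needed for survival in stationary phase, read 354, 343 and 361 against 93.8, 64.9 and 79.4 (-2.17 ± 0.13, adjusted p = 4.1e-09). The fructose-1,6-bisphosphatase gene fbp1, a standard reporter of glucose repression, read 1147, 1258 and 1038 in the cbf12-null strain and 453, 339.8 and 381 in the double null (-1.56 ± 0.12, adjusted p = 8.1e-08). For fbp1 the 4 strains were ordered by mean, with means in WT (801, 988 and 1048) and the zfs1-null strain (604, 659 and 609) between the others. WT overlapped the cbf12-null strain, and the double null lay below all others. The fall of fbp1 without Cbf12 exceeded that with Cbf12 (-0.59) by a difference of -0.97 (adjusted p = 0.0015). Among 12 measured glycolysis and fermentation genes only adh4 was called (-0.46), a call lost without replicate 2 (-0.44) or 3 (-0.42) of the cbf12-null strain. Of 41 respiration genes 14 were called lower and 1 higher, with a median of -0.09, and 8 were lower without replicate 3 of the cbf12-null strain. The largest of these falls were cox18 (-0.63), atp10 (-0.61), rip1 (-0.54) and qcr10 (-0.49).

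In the cAMP pathway 3 of 15 measured genes were called lower and 2 higher, near the 15.0% and 18.8% of all genes, and 5 were lower without replicate 1 of the double null. The G protein alpha subunit gene gpa2, which couples glucose sensing to adenylate cyclase, read 599, 679 and 703 against 334, 182 and 348 (-1.25 ± 0.20). The beta subunit gene git5 read 777, 821 and 880.2 against 558, 239.7 and 539 (-0.99 ± 0.24), while the gamma subunit gene git11 read 845, 921 and 787 against 1393, 1169 and 1251 and rose (0.58 ± 0.11). For gpa2 and git5, replicate 2 of the double null was the lowest array, and the groups did not overlap in any of the 3 genes. The gene of the activator Rst2, rst2, read 298, 297 and 288 against 165, 153 and 184 and fell (-0.82 ± 0.19, adjusted p = 0.0042).

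Over all genes 15.0% were called lower and 18.8% higher. Of 32 measured genes of the core environmental stress response, most of them induced through the kinase Sty1, 20 were called lower and 3 higher (6 without replicate 2 of the double null), with a median of -0.49. With Cbf12 present the same list gave 10 lower and 3 higher and a median of -0.03. Of those with the largest changes, tms1 read 2078, 1809 and 2154 against 370.2, 408 and 444 (-2.30 ± 0.10), the sulfiredoxin gene srx1 read 523, 468 and 534 against 109, 116 and 141 (-2.06 ± 0.15) and the glutathione S-transferase gene gst2 read 3542, 3074 and 3387 against 974, 1298 and 1213 (-1.53 ± 0.13). These transcripts stood high in the cbf12-null strain, where WT read 756, 643 and 692 for tms1, 149.9, 101 and 117 for srx1 and 315, 411 and 421 for gst2. In the antioxidant list 9 of 22 were called lower and 1 higher. The metallothionein gene zym1 read 3157, 3237 and 3703 against 1309, 1325 and 1257 (-1.37 ± 0.07, adjusted p = 8.3e-10), while WT and the zfs1-null strain differed by 0.00. Among 25 chaperone genes 4 fell and 3 rose (1 without replicate 1 of the cbf12-null strain), so the share that fell was near that of all genes. The falls were the Hsp70 gene ssa1 (-1.63), the small heat shock gene hsp16 (-0.92), psi1 (-0.66) and sti1 (-0.34).

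Of 29 measured genes of nitrogen and amino acid use, 13 were called lower and 4 higher, the latter count being 2 without replicate 1 or 2 of the cbf12-null strain or replicate 3 of the double null. For this and the next 3 lists, 15.0% of all genes were called lower and 18.8% higher. Beside urg1 and uga1, urg2 read 437, 502 and 454 against 80.6, 83.1 and 111 (-2.36 ± 0.15), and the NAD-dependent glutamate dehydrogenase gene gdh2 read 1279.5, 1290.5 and 1131 against 369, 378 and 339.7 (-1.77 ± 0.10). No array of one strain reached the other in these genes. Iron uptake genes were lower in 7 of 17 with none higher (1 without replicate 1 of the cbf12-null strain or replicate 2 of the double null), among them the permease gene fip1 (-1.33), the oxidase gene fio1 (-1.23) and the siderophore synthetase gene sib1 (-0.85). The fio1 signals were low, 36.7, 44.5 and 40.9 against 14.3, 19.7 and 18.2, and quantile normalization turned the change to 0.073 and ended the call. For the whole iron list that scaling gave 5 lower and 1 higher. The median was -0.03 there and -0.17 in the deposited scaling. In the list for phosphate, zinc and thiamine 3 of 11 fell (1 without replicate 3 of the cbf12-null strain) and 2 rose, with nmt1, the thiamine-repressed gene, at -0.49. Of the 16 wtf genes measured, a family of spore killer genes with near-identical copies, 13 were called lower and none higher, with a median of -0.89. As probes can bind several copies, the values of single wtf genes are uncertain, and wtf3 went from 153, 190.1 and 142 to 26.2, 34.6 and 24.8.

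Of the lists for growth and the cell cycle, some were called higher more often than the 18.8% of all genes and others were not. Of 119 cytoplasmic ribosomal protein genes, 62 were called higher and none lower, and all 119 changes were above 0, between 0.04 and 0.48 with a median of 0.24. Many have a near-identical paralogue that probes may not separate. The largest, rpl3801, read 2523, 2168 and 2382 in the cbf12-null strain and 2796, 4011 and 3160.1 in the double null, with replicate 2 of the double null the highest. Leaving out 1 array gave between 26 calls, without replicate 2 of the cbf12-null strain, and 90, without replicate 1 of the double null. The count was 38 without replicate 1 of the cbf12-null strain, 41 without replicate 3 of the double null and 39 with only the 6 compared arrays fitted. Without replicate 2 of the double null 34 were called, the median was 0.16 and 116 changes were above 0. With array medians set equal 27 were called, all 119 changes again being above 0, and after quantile normalization 35 were called and 101 were above 0. None was called lower in these alternatives. Histone genes rose in 6 of 12 with none lower, led by hhf1 (0.41), hhf3 (0.31), which have near-identical copies, and ams2 (0.39), the gene of a GATA factor for histone transcription. Without replicate 1 or 2 of the cbf12-null strain or replicate 2 or 3 of the double null 3 rose and the ams2 call was lost, and without replicate 2 of the double null 1 fell. Proteasome genes rose in 5 of 25 and mitochondrial ribosomal protein genes in 6 of 39, near the 18.8% of all genes, and the latter count was between 2 and 6 when 1 array was left out. Ribosome biogenesis genes gave 3 higher (between 2 and 7 when 1 array was left out) and 2 lower of 37.

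Cell separation genes were higher in 5 of 11 with none lower, and in 3 without replicate 2 of the cbf12-null strain. The shares of all genes called were 18.8% higher and 15.0% lower. The endoglucanase gene eng1, whose product dissolves the primary septum between daughter cells, read 855, 883 and 769 in the cbf12-null strain and 1413, 1953 and 1363 in the double null (0.90 ± 0.14, adjusted p = 1.4e-04). The strains did not overlap, and replicate 2 of the double null was the highest. Changes of adg2 (0.61), mid2 (0.39) and adg1 (0.38) passed the test too, the adg2 call being lost without replicate 2 of the cbf12-null strain (0.45). Mitosis genes rose in 10 of 33 with none lower, in 5 without replicate 1 or without replicate 3 of the cbf12-null strain, and in 6 with only the 6 compared arrays fitted. The anaphase activator gene slp1 read 602, 663 and 621 against 1039.6, 1064 and 1083 (0.76 ± 0.08, adjusted p = 2.3e-06), and the checkpoint gene bub3 (0.46), the spindle midzone gene ase1 (0.41) and the mitotic cyclin gene cdc13 (0.39) rose less. Of 22 genes of the G1 to S transition, 4 rose (2 without replicate 1 of the cbf12-null strain) and 3 fell (none without its replicate 2, and 1 without its replicate 1 or replicate 3 of the double null). With all arrays both counts were near the shares of all genes. The B-type cyclin gene cig2 read 1075, 1190.0 and 1155 against 2089, 2105 and 1894 (0.83 ± 0.07, adjusted p = 1.6e-07) and the replication licensing gene cdc18 read 274, 243 and 181 against 423, 332 and 374 (0.71 ± 0.15), whereas res2 (-0.45) and srw1 (-0.44) fell. The res2 call was lost in 5 of its 21 alternatives, with a change of -0.089 after quantile normalization, and the srw1 call without replicate 2 of the cbf12-null strain (-0.36). In the list of cyclins and their kinases 5 of 15 rose and 2 fell, with the Pho85-type cyclin gene psl1 at 0.69 and the kinase gene mcs6 at -0.76.

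For the lists that follow, 18.8% of all genes were called higher and 15.0% lower. Replication repair genes rose in 9 of 33 and fell in 3, with mus81 (0.79), which encodes a structure-specific nuclease, and smc6 (0.65) after mus7 and rev3. Splicing factors gave 18 higher (11 without replicate 1 or 3 of the cbf12-null strain) and 4 lower of 72, from -0.72 for cwf23 to 0.53 for cwf10. Genes of mRNA deadenylation and decay, the machinery that tristetraprolin proteins recruit, gave 7 higher and 1 lower of 27. When 1 array was left out between 5 and 9 were higher. The rises included rcd1 (0.40) and not3 (0.37) of the CCR4-NOT complex, lsm7 (0.39) and the nonsense decay gene upf1 (0.39). The upf1 call was lost at 0.25 without replicate 3 of the cbf12-null strain. Zinc finger and RNA-binding protein genes gave 4 higher and 4 lower of 20, the falls being mei2, zfs1, puf3 (-0.68) and cip1 (-0.32). The higher count was 2 without replicate 1 or 3 of the cbf12-null strain, and the cip1 call was lost without replicate 1 of that strain (-0.28) or replicate 1 (-0.24) or 3 (-0.30) of the double null. Kinetochore and centromere genes gave 5 higher and 2 lower of 31, contractile ring genes 3 and 4 of 25, cell wall synthesis genes 5 and 6 of 32, and sterol synthesis genes 6 and 2 of 26. When 1 array was left out the higher calls lay between 2 and 6, 1 and 4, 4 and 11, and 2 and 6 in these lists in turn, the 11 being without replicate 2 of the double null, and the lower calls between 1 and 4, 0 and 5, 5 and 6, and 1 and 3. Within the cell wall list the falls included the alpha-glucan synthase genes mok13 (-0.94) and mok11 (-0.52), and within the sterol list erg31 (-0.73). Among 32 genes for auxotrophic markers and their pathways 6 rose (3 without replicate 1 of the cbf12-null strain) and 1 fell, with arg7 at -0.58 and his1 at 0.37.

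**Figure D2:**
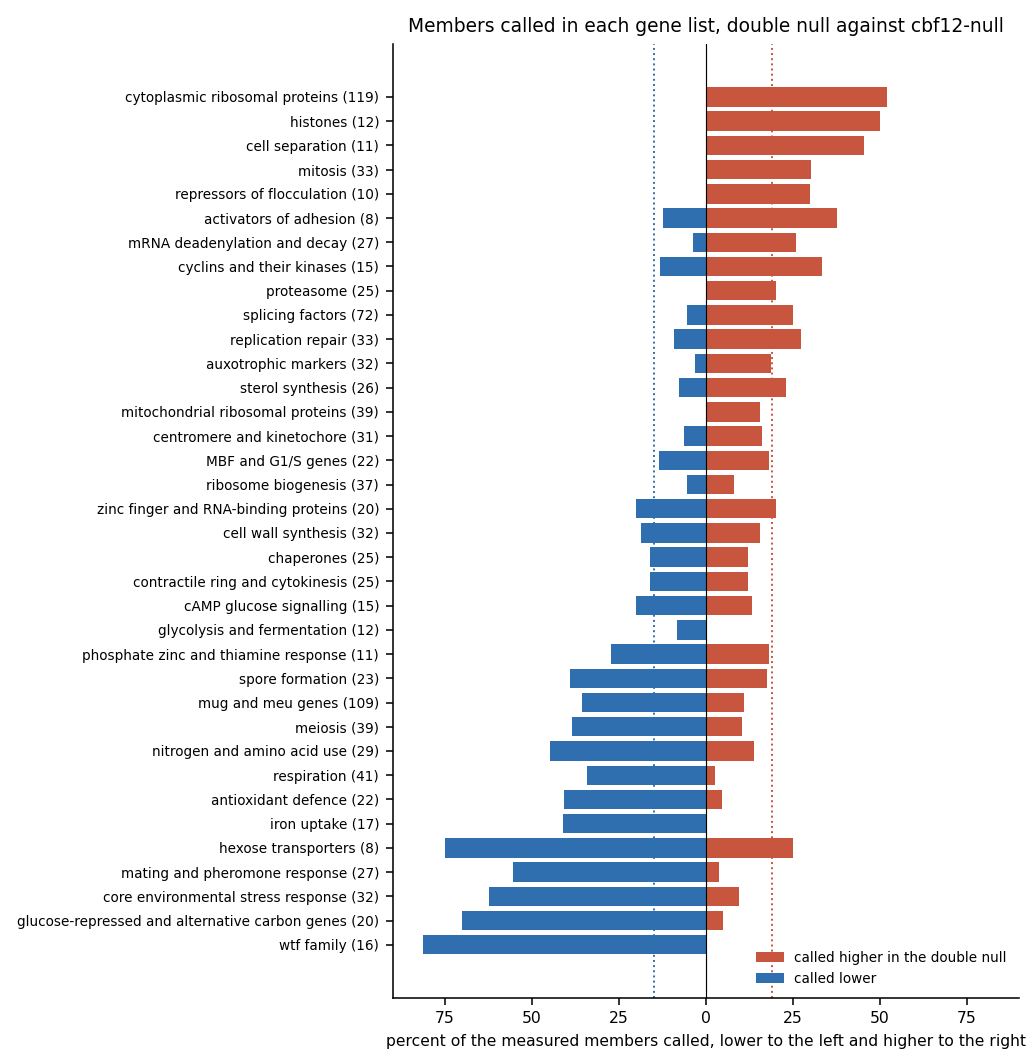
Percent of the measured members of each gene list called at an adjusted p below 0.05 in the double null against the cbf12-null strain, lower to the left and higher to the right; numbers in brackets are measured members and dotted lines mark the shares of all 2899 genes, 18.8% higher and 15.0% lower. The wtf, glucose-repressed, stress, mating and hexose transporter lists lie farthest to the left, and ribosomal proteins and histones farthest to the right.

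The effect of zfs1 deletion with Cbf12 present was taken from the WT and zfs1-null arrays of the same project. They share no array with the strains compared here but were fitted together with them. There 327 genes were called (11.3%), 120 higher (4.14%) and 207 lower (7.14%), with 4 rises and 25 falls of 2-fold or more. In project 488 the count was 570 (19.7%), 286 higher and 284 lower. In project 529 it was 1223 (42.2%), 746 higher and 477 lower. Across 2897 genes the change without Cbf12 had a Pearson correlation of 0.51 with the change with Cbf12 in project 582, 0.64 with that in project 488 and 0.54 with that in project 529, where genes are not independent replicates. Of the 546 genes that rose without Cbf12, 73 also rose with Cbf12 in project 582, which is 13.4% of the former and 60.8% of the 120 that rose there, and 15 fell there. Of the 433 falls other than zfs1, 108 also fell in project 582, which is 24.9% of the former and 52.4% of the latter, and 9 rose there. Over the 3 projects, 305 of the 546 rises and 267 of the 433 falls were called in the same direction at least once. The other 241 rises and 166 falls were called that way in none. The share of all genes called at least once was not computed, so no excess over it can be read from these counts.

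The difference between the effect of zfs1 deletion without and with Cbf12 was itself tested in project 582. It was called for 283 genes (9.76%), 127 with a higher (4.38%) and 156 with a lower value without Cbf12 (5.38%). Of the 90 falls of 2-fold or more, 70 had a called difference in the same direction and 1 in the other. In the arrays of WT and the zfs1-null strain of project 582, 43 of the 90 were called lower and 2 higher. In project 488 these counts were 59 and 3, and in project 529 they were 64 and 6. The project 582 calls are not independent of the choice of genes, since all 12 of its arrays share 1 estimate of the spread. Of the 48 genes that rose by 1.5-fold or more, 17 had a called higher difference and none a called lower one. Both sets were chosen on one arm of the difference, so these counts are a description and support nothing about it. On the arrays of WT and the zfs1-null strain 24, 32 and 42 of the 48 were called higher in projects 582, 488 and 529. Of all 2899 genes, 120, 286 and 746 were called higher in these projects in turn, and 207, 284 and 477 lower.

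The most negative differences were those of eno102, ght3 and mei2. The change of eno102 was -2.75 without and 0.58 with Cbf12 (difference -3.33 ± 0.11, adjusted p = 1.1e-11), where WT read 646, 717 and 674 and the zfs1-null strain 1011, 1049 and 979. It therefore fell without Cbf12 and rose with it. The differences of ght3 (-3.30) and mei2 (-3.28) came on top of falls of -0.79 and -1.47 with Cbf12 present. Those of uga1 (-2.58), mel1 (-2.40), rsv1 (-2.28) and wtf3 (-2.11) stood beside changes with Cbf12 of -0.13, -0.15, 0.11 and -0.40, none of which was called. The eighth, ght1, had a difference of -2.10 and fell with Cbf12 by 0.57 on the log2 scale.

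The most positive differences belonged to genes that fell with Cbf12 present. The CENP-C gene cnp3, for a protein of the inner kinetochore, read 1921, 1844 and 1800.3 in WT and 782, 881 and 817 in the zfs1-null strain (-1.17 ± 0.08), yet 1153, 1255 and 1159 in the cbf12-null strain and 1859, 2174 and 1835 in the double null (0.71 ± 0.08). It fell in one background and rose in the other, a difference of 1.88 ± 0.11 (adjusted p = 3.1e-08). Its fall with Cbf12 was also seen in projects 488 (-0.43) and 529 (-0.85). The ARS-binding protein gene abp2 also went both ways, with -0.82 with Cbf12 and 0.68 without (difference 1.51, adjusted p = 4.6e-07). Without a called change of their own in cells lacking Cbf12, mug133 (0.06), sim4 (0.32) and num1 (-0.17) differed because they fell with Cbf12 by 1.17, 0.82 and 1.26. The mitochondrial ribosomal protein gene mrpl39 (difference 1.24) and meu27 (1.82) rose without Cbf12 and fell with it, and both calls without Cbf12 were lost when any of several arrays was left out, among them replicate 2 of the double null (0.21 and 0.66). The difference of mfm1, 1.14, arose from a larger fall with Cbf12 (-3.10). When the effect with Cbf12 was taken from projects 488 and 529 instead, the difference of mfm1 was -0.70, and the calls for meu27 (0.32), sim4 (0.31) and num1 (0.07) were lost.

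**Figure D3:**
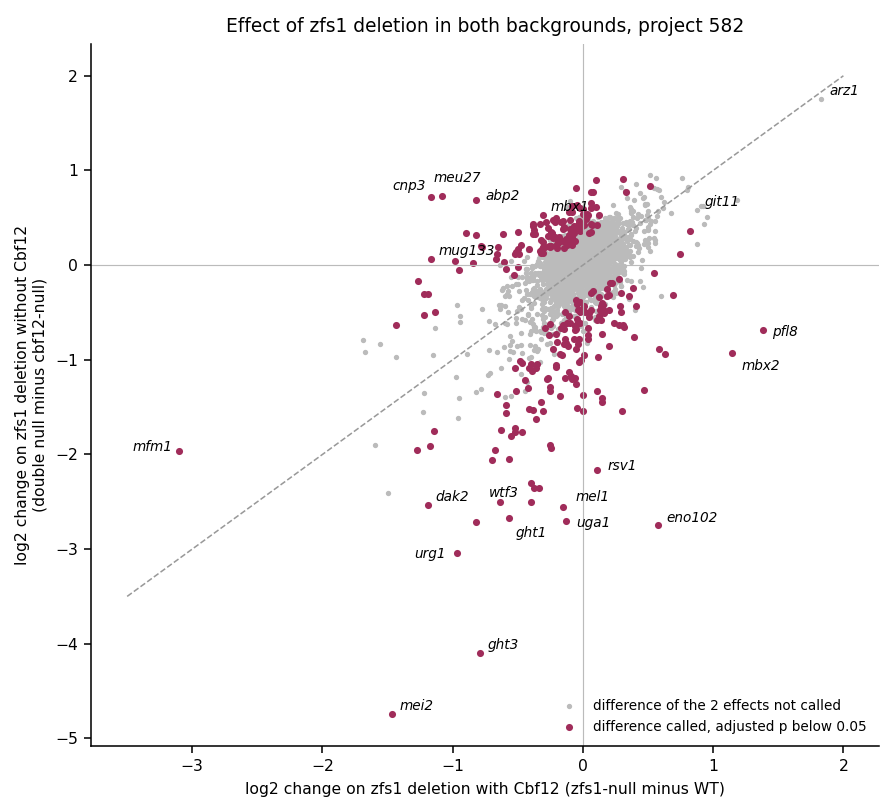
Change on zfs1 deletion without Cbf12 (vertical axis, log2 of double null minus cbf12-null) against the change with Cbf12 (horizontal axis, log2 of zfs1-null minus WT) for 2897 genes of project 582; each point is a gene and the dashed line marks equal changes. Dark red points are the genes whose difference was called, with eno102, ght3 and mei2 far below the line, pfl8 and mbx2 at the lower right, cnp3, abp2 and meu27 above it, and arz1 on it.

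Projects 488 and 529 allowed genes to be chosen without any array of project 582. In both, 174 genes rose and 165 fell with zfs1 deletion. Of the 174, 103 (59.2%) were called higher without Cbf12 and 4 lower, against 18.8% and 15.0% of all genes. Their median change was 0.36 without Cbf12 and 0.29 with it in project 582, and 160 were above 0. Of the 165, 111 (67.3%) were called lower and 3 higher, with a median of -0.56 without Cbf12 and -0.38 with it, and 147 were below 0. The difference between the backgrounds was called lower for 48 of the 165 and higher for 13, and for the 174 it was called higher for 10 and lower for 6.

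Among the 10 of these with the largest rises, pfl8 was the one called lower without Cbf12. The rises of arz1, mus7, rev3, oxr1 (0.51), an oxidation resistance gene, and art1 (0.54), for an arrestin-related adaptor, were called there. The transcription factor gene grt1 read 41.5, 47.8 and 36.7 in the cbf12-null strain and 78.6, 37.6 and 60.3 in the double null, overlapping through replicate 2, and was not called (0.43). It was called higher without that array (0.72), with array weights (0.55) and after quantile normalization (1.45). The eisosome gene fhn1 read 1959, 1657 and 2016 against 1987, 2047 and 2201 (0.15 ± 0.09, adjusted p = 0.2) and was not called, and neither were ubc6 (0.43) and srb10. The test of the difference did not pass for fhn1 (-0.36, adjusted p = 0.08) in project 582 and passed with projects 488 and 529 in its place (-0.65). Of the 10 with the largest falls, mei2, dak2, ght3, rem1, mfm1, mug42 (-0.95), mug153 (-0.83), gut2 (-0.62) and isp5 (-0.52) fell without Cbf12, and str3, a siderophore transporter gene near background, was not called (-0.79, adjusted p = 0.07). After quantile normalization the changes of mug153 and isp5 turned to 0.70 and 0.074 and the gut2 call was lost (-0.29), and the isp5 call was also lost without replicate 2 of the double null (-0.39).

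**Figure D4:**
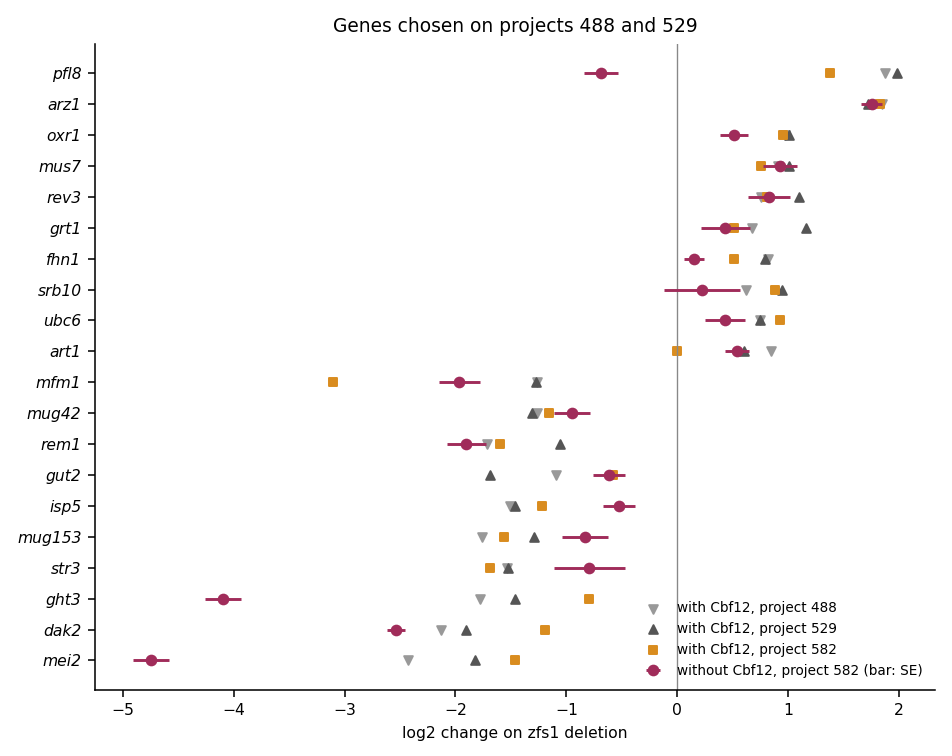
Change on zfs1 deletion (horizontal axis, log2) of the 10 genes with the largest rises and the 10 with the largest falls common to projects 488 and 529; symbols are the projects with Cbf12 and circles with SE bars are the change without Cbf12. pfl8 is the one gene of the 20 whose change without Cbf12 (-0.69) has the opposite sign to that of all 3 projects, and arz1 lies between 1.72 and 1.85 in all 4 comparisons.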

How the data were processed

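PolyA RNA of 28 samples was hybridised to Affymetrix arrays with probe sets for S. pombe and budding yeast. For each probe set of an array the authors deposited a linear intensity, made with MAS5 per the submitters' processing notes, and the sources used here give neither its version nor its settings. With 2 percent trimmed from both ends, the array means were 500.1 to 500.2.

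Of 10928 probe sets, 2917 named 1 S. pombe gene. Symbols were updated from assembly ASM294v3 (110 updated, 3 matched by symbol only), and the brightest probe set per gene left 2899 genes. No coordinates or sequences are printed, and AU-rich elements were not analysed here.

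Log2 signals of the 12 arrays of project 582 were fitted with limma 3.58.1 in R 4.3.3, 1 level per strain, with an intensity trend. Contrasts were double null minus cbf12-null, zfs1-null minus WT, and their difference. Projects 488 and 529 were fitted apart. Tests were two-sided and adjusted by the Benjamini-Hochberg method. The script was tested on simulated data.

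The comparison, the 37 gene lists and the rule for named genes were chosen with earlier results of these data known, and lists have no test. The rule named the deleted genes, the 12 largest called rises and falls with no overlap between strains, the 8 largest called differences each way, and the 10 genes each way with the largest change called in both other projects. It also named all measured adhesion genes and, for each of the other lists, at most 4 called members, or at most 2 of the brightest if no member was called. A few further genes are named as chosen after their values were seen, and the mating type genes came from a separate list of markers. Alternatives changed the scaling, the trend, the array weights, a pseudocount of 16, a filter at a mean signal of 50, the probe set rule, the replicate block, the arrays fitted and each array in turn.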

Additional observations from a re-analysis of the deposited data

Results flagged for a closer look

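The results here are named genes for which the effect of zfs1 deletion differed between cells without and with Cbf12 by the test of the difference itself. Values are the effect without minus the effect with Cbf12 on the log2 scale, 3 arrays a strain, each called by limma at an adjusted p below 0.05. No explanation was tested.

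Among adhesion genes the difference was -2.07 for pfl8, -2.07 for mbx2 and 0.84 for mbx1. Among genes of carbon use it was -3.33 for eno102, -3.30 for ght3, -2.40 for mel1, -2.28 for rsv1, -2.10 for ght1 and -1.34 for dak2. Among genes of nitrogen use it was -2.58 for uga1, -2.07 for urg1 and 0.70 for isp5. For mei2 it was -3.28, for wtf3 -2.11, for mug14 -1.89 and for gmh1 -1.87.

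Higher values without Cbf12 were found for cnp3 (1.88), abp2 (1.51), sim4 (1.15), meu27 (1.82), mug133 (1.23), mrpl39 (1.24), mfm1 (1.14) and num1 (1.09). The largest rises without Cbf12 with such a difference were imt1 (0.86), eng1 (0.80), rtt106 (0.60) and cig2 (0.32), and art1, a gene that rose in both other projects, had a value of 0.54. Of 22 alternatives each, the call was lost in 15 for cig2 and in 10 each for isp5 and art1. It was lost in 2 for num1 and in 1 each for mfm1, meu27, sim4, eng1 and mug14. The sign changed in 2 for mfm1 and in 1 for art1.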

How the results depend on the processing

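The count of 980 genes for zfs1 deletion without Cbf12 stayed within 1.5 times its value in every alternative run, from 764 when only the 6 arrays compared were fitted to 1421 with array weights, and from 698 to 1070 when 1 array was left out. Without replicate 2 of the double null 958 genes were called, 784 of them called in the same direction with all arrays. Of 150 named genes called, 112 kept call and direction in all alternatives, 12 lost the call without that array and 17 lost the call or turned after quantile normalization. The sign turned after quantile normalization for fio1 (0.073), isp5 (0.074) and mug153 (0.70). The cause was not tested.

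With Cbf12 present the count of 327 moved to 1277 with array weights and lay between 183 and 544 when 1 array was left out, the lowest without replicate 2 of the zfs1-null strain (194 without its replicate 3) and the highest without replicate 2 of the double null. The share of higher calls moved from 36.7% to 47.8% after quantile normalization (172 higher and 188 lower). The count of 283 for the difference moved to 789 with array weights, 664 with the effect with Cbf12 taken over 3 projects and 626 with it taken from projects 488 and 529, and lay between 193 and 366 when 1 array was left out. With array medians set equal 99 differences were higher and 186 lower (34.7% against 44.9% higher). With the effect with Cbf12 from projects 488 and 529 the difference turned to -0.18 for art1, and for gut2 and mfm1 it was 0.77 and -0.70, or 0.50 and -0.085 over 3 projects.

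Replicate numbers did not pair the arrays of the compared strains. Deviations of same-numbered arrays of the cbf12-null strain and the double null correlated at -0.31, -0.28 and 0.00. Those of replicate 2 of the cbf12-null strain and replicate 1 of the double null correlated at 0.32. Over all pairs of strains the 18 same-number correlations lay between -0.31 and 0.31, with 8 over 0.1. With a replicate block 948 genes were called without Cbf12, 330 with it and 297 for the difference.

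With 3 arrays a strain, small changes and changes of genes near background are measured least well.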

Other observations

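Over 2897 genes, zfs1 and cbf12 left out, mean log2 signals were correlated between strains. Those of the double null correlated at 0.982 with the zfs1-null strain, 0.968 with WT and 0.948 with the cbf12-null strain. The cbf12-null means correlated at 0.957 with WT and 0.943 with the zfs1-null strain. Genes are not independent replicates.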
